A study of Mus musculus with 4 samples.

Results

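The RNA of 8 genes of the apoptotic machinery was compared between wildtype and *Nrf1*-mutant retinas of mouse embryos at E13.5. The genes, taken by name, are the initiator caspases *Casp2*, *Casp8* and *Casp9*, the executioner caspase *Casp6*, the apoptosome scaffold *Apaf1*, the inhibitor *Xiap*, its antagonist *Diablo* and the death receptor *Fas*. All 8 were among the 24062 genes of the count table. Retinas of several littermates were pooled for each library, of both sexes and a C57BL/6 129 mixed strain, and 2 wildtype (WT) libraries were compared with 2 *Nrf1 f/f;Six3-Cre* (Nrf1-CKO) libraries. In the latter, both copies of *Nrf1*, which encodes a transcription factor of nuclear genes for mitochondrial proteins, carry loxP sites around a single exon, and the Six3-Cre transgene removes that exon in retinal progenitor cells, beginning in the central retina. The wildtype label names no allele or transgene, so a Cre-only effect cannot be told apart from that of the deletion.

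Caspases are proteases that are made as inactive precursors and are activated when a cell dies by apoptosis. In the mitochondrial, or intrinsic, route, cytochrome c leaves the mitochondria and binds the protein Apaf1, which assembles into the apoptosome and activates caspase 9. Caspase 9 then cleaves executioner caspases, which the protein Xiap can block until Diablo, also released from mitochondria, displaces it. In the extrinsic route, a ligand binds a death receptor such as Fas, and the adaptor Fadd recruits and activates caspase 8. Developing retinas lose part of their newborn neurons, retinal ganglion cells among them, by apoptosis. The read counts given here measure RNA and do not report the cleavage that activates a caspase protein.

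Between 74577660 and 85933945 reads were counted on genes in each library, and levels are given in CPM, the read counts scaled to a common library size with edgeR's TMM factors, with SD over n = 2 libraries. A gene was called when the fold change was at least 1.4, or 0.49 on the log2 scale, and the Benjamini-Hochberg adjusted p of edgeR's quasi-likelihood test over 15762 genes was at most 0.2. Over all these genes, the log2 fold change had a median of 0.001. The targeted gene, *Nrf1*, was counted at 9052 and 7789 wildtype reads against 8594 and 8284 mutant reads (log2 fold change -0.03, standard error 0.07), and since only 1 exon is deleted, a count over the whole gene is a weak check of the labels. With 2 libraries of pooled retinas per genotype, p-values measure the spread between these pools.

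Of the 8 genes, 2 were called higher in the mutant libraries, *Casp8* and *Fas*, and none was called lower. Among all tested genes, 12.8% were called higher and 8.04% lower. No gene of the 8 was lower at an unadjusted p under 0.05 either, and DESeq2 gave the same counts of 2 higher and 0 lower. The remaining 6 genes, *Casp2*, *Casp9*, *Casp6*, *Apaf1*, *Diablo* and *Xiap*, had log2 fold changes between -0.16 and 0.06. Their 95% intervals ran from -0.34 at the lowest to 0.25 at the highest, so a 1.4-fold difference in either direction lay outside the interval of each. For 2 of the 8 genes both mutant libraries exceeded both wildtype libraries, as for 30.9% of all tested genes, and for 2 both were below, as for 31.6%. For the other 4 the genotypes overlapped. *Fas* passed the filter on low counts only through its reads in the mutant libraries, so it had to differ to be tested and its call is no support. Of the 7 genes with at least 10 reads in every library, *Casp8* was the 1 called. In bulk RNA, fewer cells of a type and less RNA per cell cannot be told apart.

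**Figure D1:**
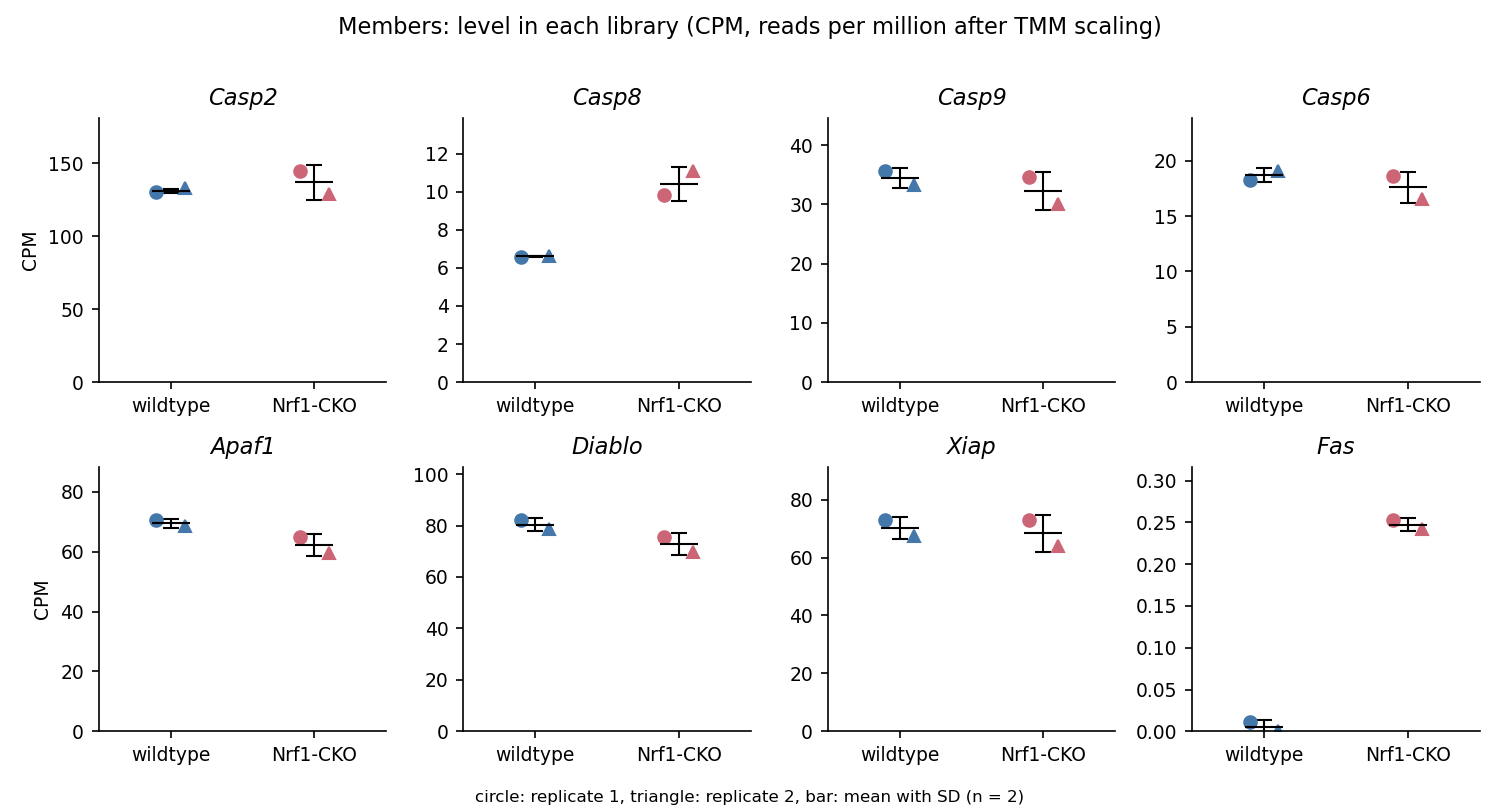
Level of each of the 8 genes in the 4 libraries, in CPM on axes that start at 0. Circles are replicate 1, triangles replicate 2, and bars the mean with SD (n = 2). Both mutant libraries stand well above the wildtype for *Casp8*, at 9.82 and 11.1 against 6.59 and 6.61 CPM, and for *Fas*, and slightly below it for *Apaf1* and *Diablo*.

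*Casp8* encodes the initiator of the extrinsic route. The gene lies on chromosome 1 of GRCm38 from 58795374 to 58847503 on the plus strand. The wildtype libraries held 577 and 490 of its reads, the mutant libraries 816 and 915. These correspond to 6.59 and 6.61 CPM in wildtype and 9.82 and 11.1 CPM in the mutant. Both mutant libraries were thus clearly higher, and the spread within a genotype was small beside the difference. The means were 6.60 ± 0.0126 and 10.4 ± 0.875 CPM, so *Casp8* rose 1.58-fold in *Nrf1*-mutant retinas, or by 0.66 on the log2 scale (standard error 0.14, 95% interval 0.34 to 0.98, edgeR adjusted p = 0.0101). The lower end of this interval is under the 1.4-fold threshold, and in edgeR's glmTreat, which tests the fold against 1.4 itself, *Casp8* was not called (adjusted p = 0.292).

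*Fas* encodes a death receptor of the tumor necrosis factor receptor family and lies on chromosome 19 from 34290666 to 34327772 on the plus strand. It was nearly absent from wildtype retinas, with 1 and 0 reads, whereas the mutant libraries held 21 and 20. The 2 mutant libraries were alike, at 0.253 and 0.242 CPM, and both wildtype libraries were at or under 3 reads, where a fold change rests on very few counts. Summed over the libraries and scaled by depth, 41 reads against 1 gave a ratio of 40.0, with an exact 95% interval for counting error of 6.79 to 1618. The fitted log2 fold change was 5.02 (standard error 1.24, edgeR adjusted p = 0.0193, and 0.0488 with no filter on low counts). It is given as a description, since *Fas* entered the filtered test only through the group where it is high. The fitted value depends on how zero counts are handled and moved to 7.32 without wildtype replicate 1 and to 4.27 without wildtype replicate 2. Its mean level in the mutant was 0.247 ± 0.00781 CPM.

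A RefSeq promoter window of each of these genes is shown from 250 bases before to 50 bases after the start of a RefSeq transcript on GRCm38.p6, 5′ to 3′ on the gene's strand, to show how many CG dinucleotides each holds, which are in capitals. The *Casp8* window is chr1:58802252-58802551 and the *Fas* window chr19:34290409-34290708, both on the plus strand. The RefSeq start of *Casp8* lies inside the gene as annotated by GENCODE, downstream of the gene start given above, so its window is not the sequence at that start.
Casp8: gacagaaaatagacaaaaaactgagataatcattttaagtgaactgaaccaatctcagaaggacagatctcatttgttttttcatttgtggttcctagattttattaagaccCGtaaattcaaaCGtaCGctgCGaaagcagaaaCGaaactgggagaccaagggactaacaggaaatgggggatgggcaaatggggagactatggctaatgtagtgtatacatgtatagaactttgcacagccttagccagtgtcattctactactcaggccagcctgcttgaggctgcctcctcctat
Fas: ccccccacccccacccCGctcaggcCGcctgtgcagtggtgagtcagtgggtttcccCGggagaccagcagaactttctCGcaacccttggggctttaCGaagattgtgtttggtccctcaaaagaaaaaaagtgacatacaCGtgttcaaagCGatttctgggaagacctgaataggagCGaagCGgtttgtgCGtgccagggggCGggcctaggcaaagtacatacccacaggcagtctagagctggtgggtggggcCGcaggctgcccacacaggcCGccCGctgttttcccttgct
The *Casp8* window holds 5 CG dinucleotides at a GC content of 42.0%, and that of *Fas* 14 at 59.0%. Over 32851 such windows of 27025 genes, the median number of CG dinucleotides was 7 and the quartiles were 3 and 20.

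NRF1 is known to bind a GC-rich palindromic sequence, and 2 short runs of letters from sites of that kind were searched on both strands of the promoter windows, TGCGCA, which reads the same on either strand, and GCGCATG, with which it can overlap. They were chosen after the promoters had been read. Of all windows, 7.76% held the first and 3.91% the second. Neither occurs in the windows of *Casp8*, *Fas*, *Casp9*, *Casp6* or *Diablo*, which says only that these letters are absent there. A match does not show that the factor binds.

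*Casp2*, whose protein is activated in the PIDDosome and acts after stress of the genome or the centrosome, was the most abundant of the 8 genes per exon length. It lies on chromosome 6 from 42264985 to 42282508 on the plus strand. Its reads were 11409 and 9834 in wildtype and 12081 and 10633 in the mutant libraries, or 130.3 and 133 against 145 and 129 CPM. The 2 mutant libraries lay on either side of the wildtype pair, so the genotypes overlapped. The log2 fold change was 0.06 (standard error 0.08, 95% interval -0.13 to 0.25, edgeR adjusted p = 0.672). The partners of caspase 2 in the PIDDosome, *Pidd1* and *Cradd*, had log2 fold changes of 0.10 and -0.22 and were not called either. The *Casp2* promoter is printed because it held more of the searched letters than that of any other of the 8 genes, at chr6:42264735-42265034 on the plus strand, with the matches in capitals.
Casp2: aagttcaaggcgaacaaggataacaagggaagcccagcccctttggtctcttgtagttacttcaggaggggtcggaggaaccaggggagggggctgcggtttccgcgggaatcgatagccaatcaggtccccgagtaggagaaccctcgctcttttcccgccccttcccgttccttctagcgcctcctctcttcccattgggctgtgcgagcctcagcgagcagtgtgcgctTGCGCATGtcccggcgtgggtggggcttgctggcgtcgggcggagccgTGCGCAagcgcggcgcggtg
TGCGCA occurs there at 2 places, 18 bases before the transcript start and at base 31 of the transcript. GCGCATG begins 17 bases before the start and overlaps the first of these.

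*Casp9* encodes the initiator that the apoptosome activates, and lies on chromosome 4 from 141793612 to 141815976 on the plus strand. It had 3127 and 2472 reads in wildtype and 2876 and 2483 in mutant libraries, or 35.7 and 33.3 against 34.6 and 30.0 CPM. Mutant replicate 1 lay between the wildtype libraries, and the genotypes overlapped. The log2 fold change was -0.10 (standard error 0.10, 95% interval -0.32 to 0.13, edgeR adjusted p = 0.555). Its exons share 1.81% of their length with genes on the opposite strand, *Cela2a* and *Ctrc*. Whether strand was used in counting is not stated.

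*Apaf1*, the scaffold of the apoptosome, lies on chromosome 10 from 90989311 to 91082770 on the minus strand. It had 6181 and 5080 reads in wildtype and 5392 and 4924 in the mutant, and at 70.6 and 68.5 against 64.9 and 59.5 CPM both mutant libraries were below both wildtype libraries. The mutant mean, 62.2 ± 3.81 CPM, was 89.5% of the wildtype mean of 69.5 ± 1.48 CPM. The log2 fold change was -0.16 (standard error 0.08, 95% interval -0.34 to 0.02, edgeR adjusted p = 0.191). *Apaf1* thus met the threshold for p but not that for the fold change, and was not called. The adjusted p alone was met by 19.5% of all tested genes in the lower and by 20.4% in the higher direction. Its promoter, at chr10:91082694-91082993 on the minus strand, is printed as the one of the 8 genes with the most CG dinucleotides, 46, and the searched letters GCGCATG, which begin 113 bases before the start, are in capitals.
Apaf1: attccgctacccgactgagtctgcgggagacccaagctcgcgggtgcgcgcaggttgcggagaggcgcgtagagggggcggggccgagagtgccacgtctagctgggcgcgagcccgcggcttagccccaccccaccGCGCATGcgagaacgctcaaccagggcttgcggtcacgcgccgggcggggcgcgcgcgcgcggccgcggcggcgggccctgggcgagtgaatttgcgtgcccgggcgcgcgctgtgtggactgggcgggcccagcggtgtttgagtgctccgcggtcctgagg
The GC content of this window is 74.7%, against a median of 52.7% over all windows.

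*Diablo*, also known as Smac, encodes the mitochondrial protein that displaces Xiap from caspases. The gene lies on chromosome 5 from 123509765 to 123524176 on the minus strand. Its reads were 7203 and 5831 in wildtype and 6291 and 5769 in the mutant, or 82.2 and 78.6 against 75.7 and 69.7 CPM. As for *Apaf1*, both mutant libraries were below both wildtype libraries by a margin similar to the spread within a genotype. The log2 fold change of *Diablo* was -0.15 (standard error 0.08, 95% interval -0.33 to 0.04, edgeR adjusted p = 0.237). Of its exons, 21.51% overlap those of *B3gnt4* on the opposite strand and 19.35% those of Gm49027 on the same strand, which makes its count less certain. *B3gnt4* had only 120 to 145 reads.

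*Xiap* encodes an inhibitor of caspase 9 and of executioner caspases. It lies on chromosome X from 42059679 to 42109656 on the plus strand. The gene had 6391 and 5000 reads in wildtype and 6056 and 5288 in the mutant libraries. At 73.0 and 67.4 against 72.9 and 63.9 CPM, replicate 1 was the higher in each genotype and the genotypes overlapped. The log2 fold change was -0.04 (standard error 0.09, 95% interval -0.24 to 0.17, edgeR adjusted p = 0.814). RefSeq gives *Xiap* 3 starts. The window of the first one, chrX:42067586-42067885, is printed because it alone of the 3 holds the searched letters, TGCGCA at base 27 and GCGCATG at base 28 of the transcript, overlapping and in capitals.
Xiap: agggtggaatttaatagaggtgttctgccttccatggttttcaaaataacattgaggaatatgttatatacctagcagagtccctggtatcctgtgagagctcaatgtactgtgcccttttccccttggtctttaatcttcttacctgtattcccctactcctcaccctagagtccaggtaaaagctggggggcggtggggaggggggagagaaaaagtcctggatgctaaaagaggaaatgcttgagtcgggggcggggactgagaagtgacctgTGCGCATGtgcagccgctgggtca
This window holds 5 CG dinucleotides and the windows of the other starts 20 and 2.

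*Casp6* encodes an executioner caspase that cleaves nuclear lamins, and lies on chromosome 3 from 129901425 to 129914103 on the plus strand. It had 1600 and 1420 reads in wildtype and 1542 and 1369 in the mutant, or 18.3 and 19.1 against 18.6 and 16.5 CPM. Mutant replicate 1 lay between the wildtype libraries. The log2 fold change was -0.09 (standard error 0.11, 95% interval -0.34 to 0.16, edgeR adjusted p = 0.616). The promoter windows of *Casp9*, *Casp6* and *Diablo* hold 28, 16 and 42 CG dinucleotides. With *Casp2* at 26 and *Apaf1* at 46, 4 of the 6 genes that were not called were above the upper quartile of all windows in their number of CG dinucleotides. No test was made on these counts, and the *Casp8* window and those of *Xiap* lie inside the annotated genes.

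Among further caspases, *Casp1*, which processes interleukin precursors, was called higher at a log2 fold change of 1.64 (standard error 0.56, edgeR adjusted p = 0.0676), with 26 and 14 against 58 and 69 reads. *Casp4* had 4 to 9 reads and was not tested, and *Casp12* and *Casp14* had none in any library.

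**Figure D2:**
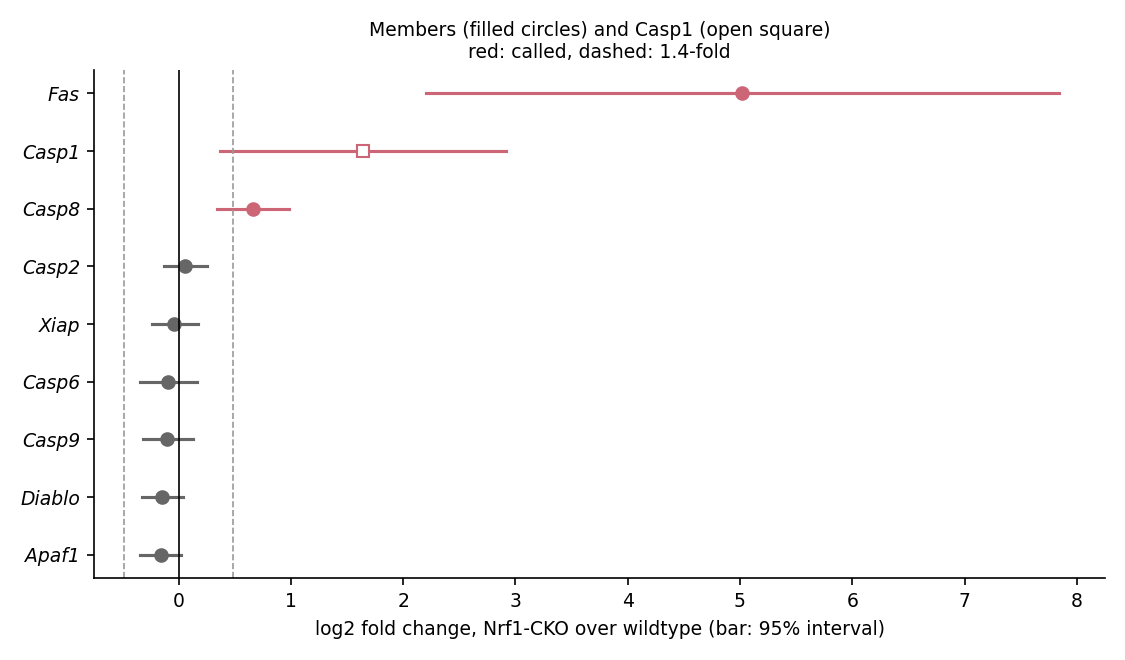
Log2 fold change of mutant over wildtype for the 8 genes (circles) and *Casp1* (square), with 95% intervals. Dashed lines mark 1.4-fold. The called genes, in red, are *Fas*, *Casp1* and *Casp8*, and the intervals of *Casp2*, *Xiap*, *Casp6*, *Casp9*, *Diablo* and *Apaf1* stay between the dashed lines. The value of *Fas* rests on 1 read in the wildtype libraries.

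To compare levels between genes, CPM were divided by the length in kb of the merged exons of each gene. On this scale, *Casp2* was the highest of the 8 in wildtype retinas at 18.6 CPM per kb, followed by *Diablo* at 13.0. *Apaf1* at 7.70 and *Xiap* at 7.42 overlapped between libraries and could not be ordered. *Casp9* at 6.64 came next, then *Casp6* at 3.35. *Casp8* at 2.28 and *Fas* at 0.00277 were the lowest.

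In the mutant retinas the order at the top was the same, with *Casp2* at 19.4 and *Diablo* at 11.8 CPM per kb. The levels of *Xiap*, *Apaf1* and *Casp9*, at 7.22, 6.89 and 6.22, overlapped from each to the next. *Casp8*, which in wildtype was below *Casp6* in both libraries, at 2.28 and 2.28 against 3.27 and 3.43 CPM per kb, was above it in both mutant libraries, at 3.40 and 3.82 against 3.32 and 2.96. *Fas*, at 0.120, stayed far under the caspases.

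**Figure D3:**
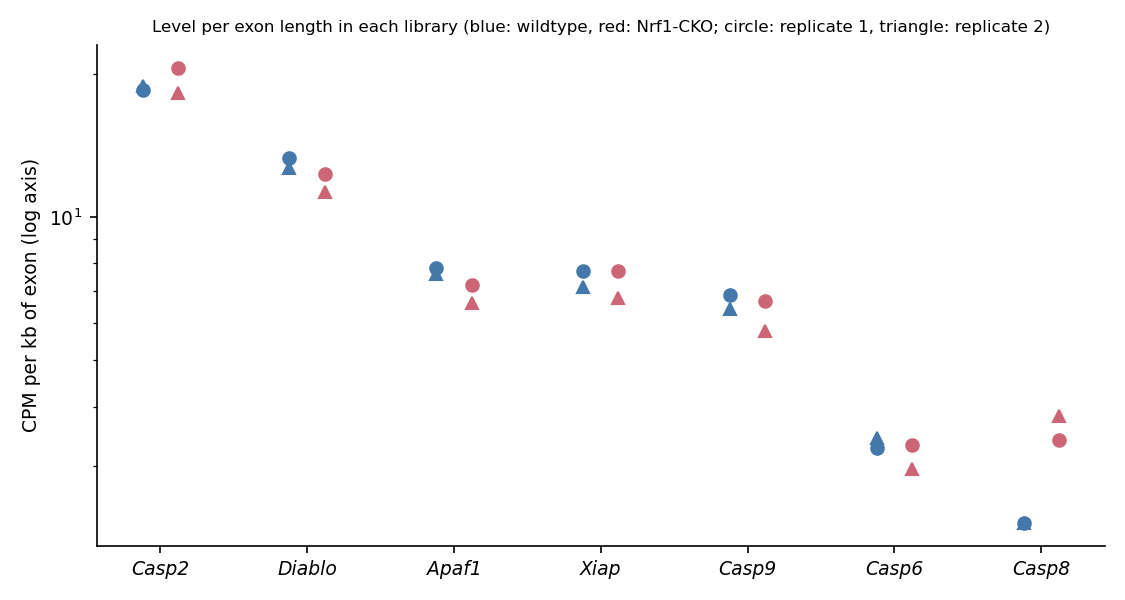
CPM per kb of exon on a log axis for the 8 genes without *Fas*, in each library (circles replicate 1, triangles replicate 2; blue wildtype, red mutant). From left to right the genes are in the order of their wildtype mean. *Casp8* lies under *Casp6* in wildtype and above it in the mutant, by little in replicate 1 (3.40 against 3.32 CPM per kb).

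Ratios within each library set partners of the routes side by side, on the scale of CPM per kb. They were chosen after the values had been seen and were not tested. The ratio of *Diablo* to *Xiap* was 1.73 and 1.79 in wildtype and 1.60 and 1.68 in mutant libraries. That of *Casp9* to *Apaf1* was 0.879 and 0.845 against 0.927 and 0.876, so these proportions within the apoptosome route differed little between genotypes. Between the routes the shift was larger, with *Casp8* to *Casp9* at 0.331 and 0.356 in wildtype and 0.510 and 0.662 in the mutant. The ratio of *Casp8* to *Cflar*, which encodes the inhibitor cFLIP that competes with caspase 8, was 0.962 and 1.02 in wildtype and 1.37 and 1.48 in the mutant.

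The extrinsic route around *Fas* and *Casp8* was examined with 15 further genes, of which 13 were tested. Of these, 3 were called higher and 3 lower, against 12.8% and 8.04% of all tested genes, and the median was 0.14 on the log2 scale. *Tnfrsf10b*, a receptor of the death ligand TRAIL, had 183 and 154 reads in wildtype and 424 and 423 in the mutant (log2 fold change 1.29, edgeR adjusted p = 0.00234). *Tnfrsf1a*, the receptor of tumor necrosis factor, had 675 and 622 against 1123 and 1240 reads (0.83, edgeR adjusted p = 0.00228). Both encode receptors with a death domain, as does *Tnfrsf21*, which was at 0.17 (edgeR adjusted p = 0.173) and is named after its value was seen. *Ngfr*, the p75 neurotrophin receptor, which carries one too, was called lower, with 5081 and 4732 against 2314 and 1698 reads (-1.33, edgeR adjusted p = 0.000285). The adaptor *Fadd*, which links Fas to caspase 8, had a log2 fold change of -0.20 (edgeR adjusted p = 0.262), and *Cflar* one of 0.14 (edgeR adjusted p = 0.321). The ligand of Fas, *Fasl*, had 0 and 11 reads in wildtype and 0 and 3 in the mutant, and was not tested. The other called genes, named after their values were seen, were the ligand gene *Tnf*, at 2 and 1 against 13 and 41 reads, which like *Fas* passed the filter only through the mutant libraries, and 2 genes called lower, the death domain receptor gene *Tnfrsf25* at -0.72 and the Fas inhibitor gene *Faim2* at -1.44.

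The release of mitochondrial proteins, which precedes the apoptosome, was covered by 4 tested genes, and none was called. *Cycs*, encoding cytochrome c, had a log2 fold change of 0.03 (edgeR adjusted p = 0.92), and *Htra2*, which encodes another protein that binds Xiap, had one of 0.22 (edgeR adjusted p = 0.128). Among 16 tested genes of the BCL2 family, which control this release, 3 were called higher (12.8% over all tested genes), none lower, and the median log2 fold change was 0.29. The genes *Pmaip1* and *Bbc3*, which encode the BH3-only proteins Noxa and Puma, were called higher at log2 fold changes of 3.84 and 0.95 (edgeR adjusted p = 0.000252 and 0.00364). *Bcl2a1b*, which was named after its value was seen, was the third of them, with 8 and 18 against 123 and 93 reads, and passed the filter only through the mutant libraries. *Bax*, a pore-forming member, had a log2 fold change of 0.29 (edgeR adjusted p = 0.0392), under the fold threshold. Of the others, named after their values were seen, the pore-forming *Bak1* at 0.33, the BH3-only *Bcl2l11* and *Bmf* at 0.36 and 0.30, and the survival genes *Bcl2* and *Bcl2l1* at -0.38 and -0.20 also met the threshold for the adjusted p but not that for the fold. The other inhibitors of the family of *Xiap* counted 8 tested genes, of which 3 were called higher (12.8% over all tested genes). These were *Naip2*, at 2.12 (edgeR adjusted p = 0.00543), and its paralogs *Naip5* and *Naip6*, named after their values were seen. Reads may be split between these related genes, whose proteins sense bacterial components, and *Naip6*, at 5 and 0 against 30 and 14 reads, passed the filter only through the mutant libraries. *Birc2*, encoding cIAP1, and *Birc5*, encoding survivin, were at -0.23 and -0.02 and were not called. *Birc2* met the threshold for the adjusted p (edgeR adjusted p = 0.0873) but not that for the fold.

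Downstream of the caspases, 10 genes for proteins that caspases cleave or release from an inhibitor were tested, and 2 were called higher, a share not far from the 12.8% of all tested genes, the median being 0.06 on the log2 scale. They were *Gsn*, the actin-severing gelsolin, at 1.42, and the lamin gene *Lmna*, whose protein is a target of caspase 6, at 1.00 (edgeR adjusted p = 0.00128 and 0.00145). *Dffa* and *Dffb*, which encode the inhibitor of the nuclease that cuts DNA in apoptosis and the nuclease itself, were at -0.20 and 0.10 and were not called. *Dffa* met the threshold for the adjusted p (edgeR adjusted p = 0.18) but not that for the fold. *Fas*, *Apaf1*, *Bbc3*, *Pmaip1* and *Tnfrsf10b* are known targets of the tumor suppressor p53, and 16 genes, *Trp53* and further targets, were listed beside them. Of these, 7 were called higher and none lower, against 12.8% and 8.04% of all tested genes, around a median of 0.36. Those with the largest changes were *Eda2r* at 3.17, *Cdkn1a*, which encodes the cell cycle inhibitor p21, at 3.01, and *Phlda3* at 2.07 (edgeR adjusted p = 7.02e-05, 0.000178 and 0.000184). *Trp53* RNA itself was at 0.07 (edgeR adjusted p = 0.609).

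**Figure D4:**
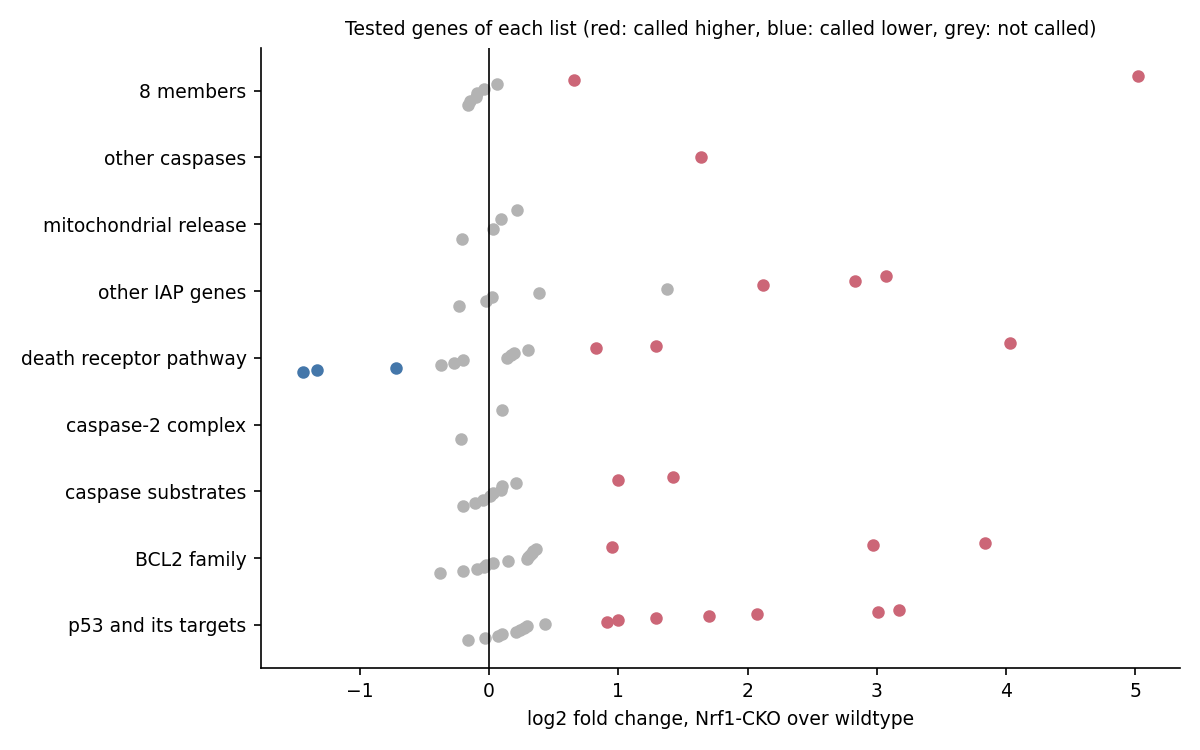
Log2 fold change of mutant over wildtype for each tested gene of the lists, one line per list and one point per gene, red where called higher, blue where called lower and grey where not called. The death receptor list holds genes called in both directions, 3 higher and 3 lower of 13 tested. The BCL2 family (3 of 16 tested) and the p53 targets (7 of 16) hold only higher calls. So do the 8 genes (2 called), other *Xiap* family genes (3 of 8), caspase substrates (2 of 10) and other caspases (1 tested). Of all tested genes, 12.8% were called higher and 8.04% lower. Some called genes, *Fas*, *Tnf*, *Naip6* and *Bcl2a1b* among them, passed the filter only through the mutant libraries.

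Markers of several cell types differed between the genotypes in these libraries. Of all tested genes, 12.8% were called higher and 8.04% lower. All 14 macrophage markers were called higher, and their summed level was 97.3 and 89.6 CPM in wildtype and 296 and 355 CPM in the mutant. All 8 lens markers were called higher too, from 126 and 336 to 7077 and 2858 CPM, with *Crygs* passing the filter only through the mutant libraries. Markers of pigment epithelium (5 of 7 called higher, 208 and 148 against 379 and 401 CPM) and of mesenchyme (7 of 9, 266 and 196 against 424 and 372 CPM) were also higher. Of the pigment epithelium list, *Rpe65* had 4 reads at most. Of 8 endothelial markers, 6 were called higher and 1, *Kdr*, lower, at sums of 269.8 and 273 against 289.9 and 282 CPM, of which *Kdr* alone made up 199.7 and 211 against 144 and 137 CPM. Of 5 tested erythroid markers 2 were called higher, at 550.0 and 650.0 against 712 and 713 CPM, with *Hba-a1* and *Hbb-bt* at 0. All 9 markers of retinal ganglion cells were called lower, from 1725 and 1953 to 674 and 513 CPM. Of 11 progenitor markers, 2 were called lower, *Hes5* and *Fgf15*, at sums of 5733 and 6139 against 5056 and 5524 CPM, so RNA of progenitors, the dividing cells of the labelled tissue, was present in every library. The part of these cell types in the levels of *Casp8*, *Fas* and the other called genes was not tested. With the marker genes of lens, pigment epithelium, macrophages, endothelium, mesenchyme and erythroid cells left out of the scaling, the log2 fold changes of *Casp8* and *Fas* were 0.66 and 5.02. This step changes only the scaling factors, so it cannot show which cells the reads of *Casp8* and *Fas* came from.

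**Figure D5:**
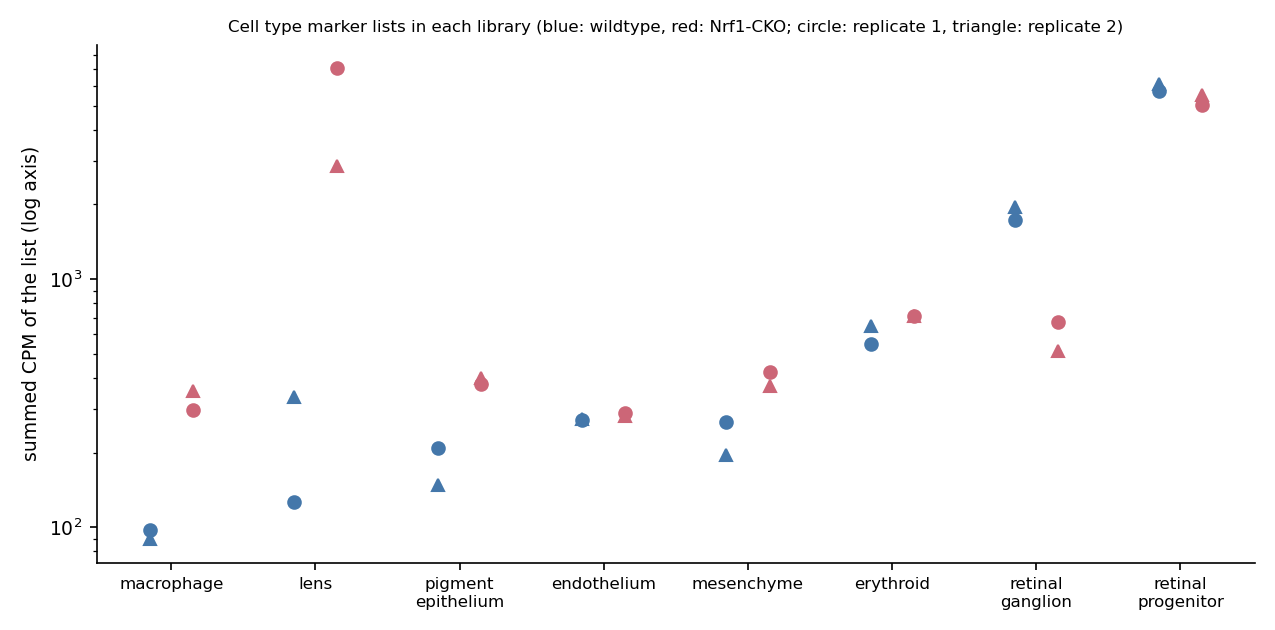
Summed CPM of each cell type marker list in each library on a log axis (blue wildtype, red mutant; circles replicate 1, triangles replicate 2). Lens and macrophage sums are far higher in the mutant libraries, and the sum of retinal ganglion cell markers is lower in both.

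Over the 4 libraries, the genes whose log2 CPM followed that of *Fas* most closely were *Dmp1*, with 1 and 0 reads in wildtype and 19 and 18 in the mutant, and *Cd200r4*, with 1 and 0 against 24 and 24. The root-mean-square difference of their centred log2 CPM from that of *Fas* was 0.0671 and 0.107. Like *Fas*, both passed the filter on low counts only through their mutant reads, so their closeness is a description only. For *Casp8*, chosen after its values were seen, the closest genes were *Abca4*, at 611 and 528 against 866 and 956 reads, and 2900060B14Rik, at 1161 and 1011 against 1674 and 1904 reads, with differences of 0.0157 and 0.0181. These values describe 4 libraries only.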

How the data were processed

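RNA-seq libraries of E13.5 retinas were analysed from the counts. Per the methods of the study, RNA was treated with DNase and converted to cDNA with a NuGen kit, and paired-end reads were mapped to mm10 with Tophat (2.7.2 in the submitters' processing notes) and counted per gene with HTSeq. The authors deposited these read counts without normalization. They also deposited normalized values on a log2 scale, with 8.126 for a count of 0 in every library. How these were made and the release of the annotation are not given in the sources used here. The processing notes also name DESeq and limma. Differential expression by Cuffdiff in the study needs alignments, which were not used here.

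The 5 summary entries of HTSeq, which made up 74.0% to 75.0% of all entries, were left out. Most were alignments that were not unique (54.6% to 58.0%). Genes passing edgeR's filterByExpr at a minimum count of 10 were scaled with TMM (factors 0.992 to 1.02) and compared in R 4.3.3 with edgeR 4.0.16 and its quasi-likelihood test, without covariates, at the thresholds of the study. The biological coefficient of variation was 12%. Replicates differed by more than sampling noise (chi-square per gene 45.8 and 56.8). Intervals cover counting error and the spread of 2 libraries, and PCR copies are not independent molecules. In simulated counts for this comparison, 79.3% of 198 changed genes among 15586 tested, and 84.4% of the 135 that changed at least 2-fold, were recovered with the right sign, and 31 of 15388 unchanged genes were called.

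Coordinates and exon lengths come from GENCODE for GRCm38 (the same build as mm10), and promoter windows from RefSeq on GRCm38.p6, where all 8 genes had a window. The gene list and the lists of related genes and markers were chosen with earlier results of these data known. All 8 genes and further caspases are named. From each other pathway list, the text names genes that act directly on the 8 and called genes averaging at least 1 CPM, at most the 3 with the largest change. It names at most 2 genes of each marker list and the 2 genes most like the called gene that rose most. Genes outside this rule, among them some under 1 CPM and those most like *Casp8*, were chosen after their values were seen. 1 listed gene, *Septin4*, was not matched to a row. Some further genes are not reported here. *Adgre1* is listed under an older symbol. Alternatives were DESeq2 1.42.0, edgeR's exact test and glmTreat, other scalings and filters, a stricter p, the replicate number as a block, each library left out, and the deposited log2 values tested with limma 3.58.1. A threshold without a minimum fold was added after seeing the data.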

Additional observations from a re-analysis of the deposited data

How the results depend on the processing

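*Casp8* was called higher with DESeq2, edgeR's exact test, other scalings, no filter on low counts, an adjusted p of at most 0.05, and without each library in turn, where the library left alone in its genotype was assumed to vary like the others. *Fas* was called there too, but it entered most of these tests only through the mutant libraries, which says nothing about stability. With at least 10 counts required in every library, *Fas* was not tested and 1 of the 8 genes was called higher. With glmTreat, 1 was called higher (*Fas*), *Casp8* keeping a log2 fold change of 0.66 at an adjusted p of 0.292, and the counts over all genes were 743 lower and 1188 higher. On the deposited log2 values with limma, 0 of the 8 were called, since *Casp8* at 0.41 (adjusted p = 0.0205) and *Fas* at 0.35 (adjusted p = 0.0215) were under the fold threshold, and 722 genes were called lower and 941 higher. In these values every count of 0 is set at 8.126, and how they were made is not given. Why the changes are smaller there was not tested. Without a minimum fold, an alternative added after seeing the data, 3076 genes were called lower and 3211 higher, and of the 8 genes *Apaf1* at -0.16 was the 1 called lower. Signs turned only in genes that were not called: *Xiap* to 0.0022 with upper-quartile factors, to 0.02 and 0.05 without wildtype replicate 1 or mutant replicate 2, *Casp2* to -0.03 without mutant replicate 1, and *Casp9* to 0.0022 without mutant replicate 2. The cause was not tested. With single libraries left out, log2 fold changes lay between -0.03 and 0.14 for *Casp2*, 0.57 and 0.75 for *Casp8*, -0.20 and 0.0022 for *Casp9*, -0.18 and -0.01 for *Casp6*, -0.22 and -0.10 for *Apaf1*, -0.21 and -0.09 for *Diablo*, -0.13 and 0.05 for *Xiap*, and 4.27 and 7.32 for *Fas*. With the replicate number as a block, the log2 fold changes of *Casp8* and *Fas* were 0.66 and 5.05, and 1256 genes were called lower and 1970 higher, with no call among the 8 changed. The difference between replicates correlated between genotypes at r = 0.00 across 15762 genes. Whether libraries of the same number share a litter or a preparation is not stated, and this correlation cannot decide it. Of the 8 genes, *Fas* is the one most limited by depth, with 1 wildtype read in all.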
